A study of Homo sapiens with 12 samples.

Results

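The major histocompatibility complex (MHC) was examined for peaks of chromatin that came down with the long non-coding RNA SLEAR in Jurkat cells. Jurkat is an established human T-cell leukaemia line, and all samples came from Jurkat cells made to express SLEAR stably, so no cells without it were compared. In chromatin isolation by RNA purification with sequencing (ChIRP-seq), crosslinked chromatin is captured through biotinylated oligonucleotides that pair with the RNA. Oligonucleotides against SLEAR were split into an odd and an even set with none in common, and a lacZ set, aimed at a bacterial RNA absent from human cells, serves as the usual negative control. There were 12 labelled samples, 3 each of odd, even, lacZ and input, and the peak lists of the 9 lacZ, odd and even samples were used. Nothing in the labels says that the replicates came from separate cultures, so each p-value measures only the spread between these lists, which may be technical.

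The MHC interval was taken as chromosome 6 from 28500001 to 33500000 on build hg19, a stretch of 5 Mb that holds the extended MHC with its class I, class III and class II genes. A peak belonged to it when its summit lay inside, whatever its strength. The 9 lists held 1642 such peaks, beside 43051 in the rest of chromosome 6, and 764268 peaks in all. Overlapping peaks of the 9 lists merged into 727 regions in the interval. No list held a peak on an alternative haplotype sequence of chromosome 6, so none is reported apart. The sources used here do not give whether those sequences were part of the alignment reference. Peak lists carry no expression values, so the cell line could not be checked against marker genes, and no gene table on build hg19 was used, so regions are named by position.

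Class I molecules show peptides from inside the cell to cytotoxic T cells, class II molecules show peptides that antigen-presenting cells have taken up to helper T cells, and the class III stretch between them holds complement and cytokine genes. Variation in this complex is among the strongest genetic links to systemic lupus erythematosus, the disease named in the title of the study. Of 36 MHC genes listed for this comparison, all 36 were found in RefSeq's table for assembly GRCh38.p14, which was used only for their order. The order runs from class I genes, among them HLA-F, HLA-G, HLA-E, HLA-C and HLA-B, with MICA and MICB, ligands of a natural killer receptor, through LTA, TNF and LTB, cytokine genes, and C2, CFB, C4A and C4B, complement genes, to HLA-DRA, HLA-DRB1, HLA-DQA1 and HLA-DQB1 of class II. TAP1 and TAP2, the peptide transporter, and PSMB8 and PSMB9, proteasome subunits, lie among the class II genes before HLA-DPA1 and HLA-DPB1. Positions in the interval rise in this order, so its low end is the class I side and its high end the class II side.

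The first question was whether the interval holds more peaks than the rest of its chromosome. It did in all 9 lists, and by most in the odd lists. The odd lists held 166, 270 and 283 peaks in the interval (replicates 1, 2 and 3), which is 33.2, 54.0 and 56.6 per Mb. In the rest of chromosome 6, counted over the 328 windows of 500 kb that had a peak in any list, the same lists held 22.6, 35.4 and 40.7 peaks per Mb. The even lists held 190, 186 and 235 peaks in the interval, or 38.0, 37.2 and 47.0 per Mb, against 31.3, 30.3 and 43.0 per Mb outside it. With lacZ probes the interval held 86, 171 and 55 peaks, or 17.2, 34.2 and 11 per Mb, against 16.8, 32.6 and 9.79 per Mb. The gap between interval and surroundings was thus wide in every odd list, narrower in the even lists and on average smallest in the lacZ lists. Median peaks per window of 500 kb, averaged over the lists of a set, were 24.8 inside and 15.7 outside for odd. They were 20.3 and 17 for even, and 9.67 both inside and outside for lacZ. Of the 10 windows in the interval, 9, 7 and 4 lay above the outside median for odd, even and lacZ. Of the windows outside, 7.01%, 26.2% and 48.2% lay above the interval's median for these sets. Counts as high as the interval's were thus common elsewhere on the chromosome for even and lacZ.

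Each list's density in the interval was then divided by that in the rest of the chromosome. This ratio was 0.29 ± 0.21 on the log2 scale over the 9 lists (SD), or 1.22-fold, and it was above 0 in 9 of 9 (p = 0.00391 by an exact, two-sided sign-flip permutation test, the lowest value possible with 9 lists). The test takes the 9 lists as separate units, though lists of a set share many peaks. It does not measure how stretches of the chromosome vary. The ratio was 0.55, 0.61 and 0.48 in odd replicates 1, 2 and 3, a mean of 0.55 ± 0.067 (SD, n = 3). In the even lists it was 0.28, 0.30 and 0.13, a mean of 0.23 ± 0.094, and in the lacZ lists 0.035, 0.069 and 0.17, a mean of 0.091 ± 0.070 (SD, n = 3 each). Every odd list lay above every even and lacZ list. Even replicate 3 lay below lacZ replicate 3, so the even and lacZ sets overlapped. With lists of equal length odd minus even was 0.19 (exact permutation p = 0.2), so odd and even lists overlapped there, and odd minus lacZ was 0.30 (exact permutation p = 0.1).

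**Figure D1:**
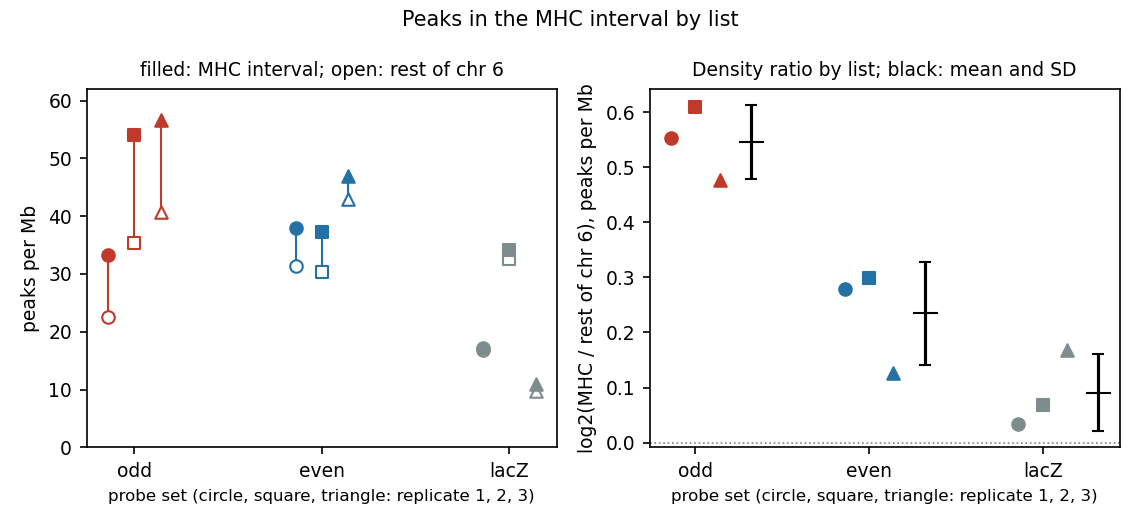
Left, peaks per Mb in the MHC interval (filled) and in the rest of chromosome 6 (open), joined for each list; right, the log2 ratio of the 2 densities by list, with the mean and SD of each set of 3 in black. The odd lists, from 0.48 to 0.61, lie above all others with the full lists, and even and lacZ lists overlap.

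The sets were compared on this ratio in 4 ways, which share lists. The 6 probe lists stood 0.30 above the 3 lacZ lists on the log2 scale, or 1.23-fold, with 5 of the 6 above all lacZ lists (exact permutation test, two-sided, p = 0.0357, adjusted p = 0.133 over the 4 comparisons). The odd lists stood 0.46 above the lacZ lists, or 1.37-fold, and 0.31 above the even lists, or 1.24-fold (exact permutation p = 0.1 for each, adjusted p = 0.133, where 3 against 3 cannot go below 0.1). The even lists stood 0.14 above the lacZ lists, or 1.11-fold (exact permutation p = 0.2, adjusted p = 0.2), a difference within the spread of the lists. The probe difference did not stay under 0.05 with lists of equal length (0.20, exact permutation p = 0.0595), against the rest of all chromosomes (0.20, p = 0.155) or in 8 of 9 settings that left out 1 list (0.26 to 0.34, exact permutation p = 0.0536 to 0.143), all but the one without even replicate 3. Without window 7 of those described next it was 0.19 (exact permutation p = 0.107).

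The peaks of the interval did not differ in strength or length from those around them beyond the spread of the lists. Fold enrichment is the authors' value for a peak, read here as a ratio to a background that the sources do not define. The median percentile of fold of the interval's peaks within a list was lower than in the rest of chromosome 6 in 7 of 9 lists. The mean difference was −1.64 ± 2.75 percentile points (SD, n = 9, exact sign-flip permutation p = 0.121). Without the libraries numbered 3 the mean difference was −2.57 points (exact permutation p = 0.0313, the lowest value possible in that setting). The median length of the interval's peaks ran from 344 bases in odd replicate 3 to 453.5 in lacZ replicate 1. The log2 ratio to the rest was 0.021 ± 0.086 (SD, n = 9, exact sign-flip permutation p = 0.504). The share of strong peaks was not tested. Of the even peaks in the interval, 11.3% to 12.8% were in the top 10% of their list by fold, against 10.3% to 10.7% in the rest of the chromosome. The odd lists had 10.6% to 12% there, against 10.6% to 10.8%, and the lacZ lists 5.45% to 7.6%, against 9.41% to 11.2%. In the lacZ lists these shares rest on 6, 13 and 3 peaks.

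Peaks were next followed along the interval in 10 windows of 500 kb, numbered from the class I side, with each count given per 10000 peaks of the list. Odd peaks were dense over most of the interval, and even peaks were fewer in the first 3 windows than in the others. The lacZ peaks were fewest in windows 6 and 7, at means of 1.41 and 0.940, but not in window 5, at 2.46. Each window was tested with limma in 1 fit over all 5730 windows of chromosomes 1 to 22 and X that held at least 9 peaks, with Benjamini-Hochberg adjusted p-values. Odd against even gave 5 windows that were higher with odd probes, where 10.7% of all windows were, and 1 that was lower, where 11.4% were. The median log2 difference was 0.38 over the 10 windows and −0.0021 over all windows.

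Odd against lacZ gave 4 higher windows, where 17.3% of all windows were higher, and 1 lower window, where 21.0% were. Even against lacZ gave 3 higher and 3 lower windows, where 16.7% and 19.3% of all windows were so called. The mean of both probe sets against lacZ gave 4 higher windows and 1 lower, where 18.1% and 22.1% of all windows were. These comparisons share the lacZ lists. Median differences over the 10 windows were 0.43 for odd against lacZ, −0.21 for even against lacZ and 0.066 for both sets against lacZ, against −0.038, −0.027 and −0.053 over all windows.

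**Figure D2:**
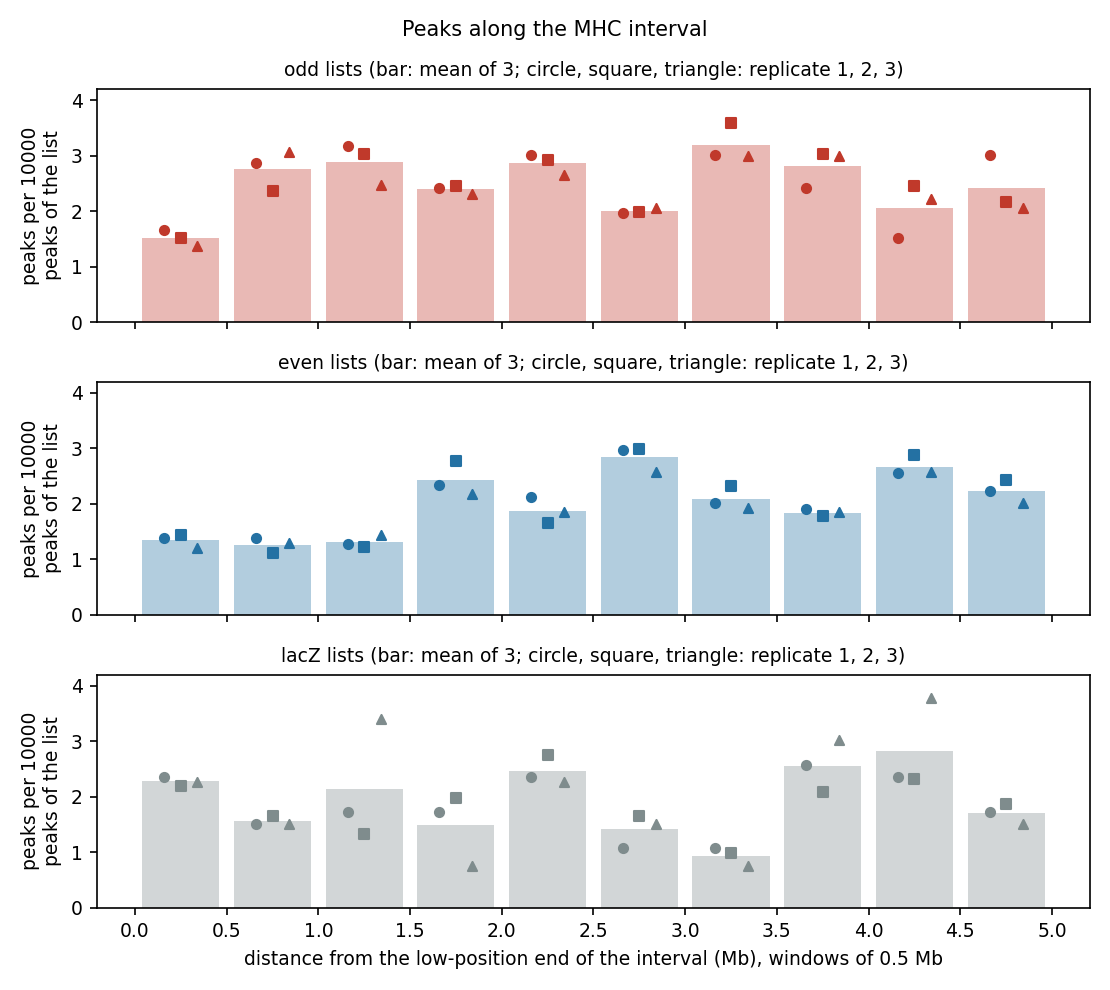
Peaks per 10000 peaks of the list in 10 windows of 500 kb, by distance from the class I end of the interval in Mb; bars are means of 3 lists and points are lists. Odd peaks exceed even peaks in the second and the third window, and lacZ peaks are lowest in window 7.

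At the class I end, in window 1 (28.5 to 29 Mb), both probe sets were lower than lacZ. The odd lists held 1.66, 1.51 and 1.37 peaks per 10000, the even lists 1.38, 1.44 and 1.21, and the lacZ lists 2.36, 2.20 and 2.27, so neither probe set overlapped lacZ. The log2 difference was −0.62 ± 0.17 for odd and −0.78 ± 0.17 for even (SE, limma adjusted p = 0.00755 and 0.00180). In the 50% of each list with the highest fold the odd difference was 0.10 (limma adjusted p = 0.733).

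Windows 2 and 3 (29 to 30 Mb) separated the 2 sets aimed at SLEAR. In window 2 the odd lists held 2.86, 2.36 and 3.07 peaks per 10000 and the even lists 1.38, 1.11 and 1.29, with lacZ at 1.5, 1.65 and 1.51. All odd lists lay above all even lists, at 1.10 ± 0.16 on the log2 scale (SE, limma adjusted p = 0.000371), and this call held in 18 of 18 other settings. Odd also exceeded lacZ there, by 0.75 ± 0.16 (limma adjusted p = 0.00212), while even against lacZ was −0.36 (limma adjusted p = 0.0962). In window 3 odd again exceeded even, by 1.10 ± 0.25 (limma adjusted p = 0.00472), with 3.17, 3.02 and 2.48 against 1.27, 1.22 and 1.45 peaks per 10000. The lacZ lists spread there from 1.32 to 3.40.

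Among the 338 windows of chromosome 6 with a peak, windows 2 and 3 ranked 22 and 18 by the number of odd peaks, but 270 and 256 by the number of even peaks. Window 6 (31 to 31.5 Mb) stood the other way, with rank 94 for odd and 5 for even peaks. Even lists held 2.97, 2.99 and 2.58 peaks per 10000 there, odd lists 1.96, 1.98 and 2.05, and lacZ lists 1.07, 1.65 and 1.51. The 3 sets did not overlap. Even exceeded lacZ by 0.94 ± 0.17 (SE, limma adjusted p = 0.000464), in 18 of 18 other settings as well, and odd minus even was −0.49 ± 0.17 (limma adjusted p = 0.0395), a call kept in 9 of 18.

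Both probe sets exceeded lacZ by most in window 7 (31.5 to 32 Mb), in the middle of the interval. The odd lists held 3.02, 3.59 and 2.99 peaks per 10000, the even lists 2.02, 2.33 and 1.93, and the lacZ lists 1.07, 0.991 and 0.756. Odd exceeded lacZ by 1.62 ± 0.16 (limma adjusted p = 3.31e-06) and even by 1.02 ± 0.16 (limma adjusted p = 0.000201), and both calls held in 18 of 18 other settings. The lacZ lists held only 5, 9 and 2 peaks in this window, rank 312 of 338 on the chromosome, against rank 4 for odd and 82 for even. Probe counts were thus high for the chromosome and lacZ counts low.

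In window 4 (30 to 30.5 Mb) the probe sets were close to each other, with an odd minus even difference of −0.012 (95% interval −0.47 to 0.45), and both exceeded lacZ, by 0.69 ± 0.22 for odd and 0.70 ± 0.22 for even (limma adjusted p = 0.0193 and 0.0197). Both calls held in 13 of 18 other settings, and without lacZ replicate 3 the differences were 0.34 and 0.35 (limma adjusted p = 0.0811 and 0.0726). Windows 5 (30.5 to 31 Mb) and 8 (32 to 32.5 Mb) were lower with even probes than with lacZ, by −0.42 and −0.48 on the log2 scale (limma adjusted p = 0.0318 and 0.0271), and higher with odd than with even probes, by 0.60 and 0.59 (limma adjusted p = 0.00794 and 0.015). The even calls against lacZ were kept in 10 and 9 of 18 other settings. The window 8 difference turned to −0.65 when lists were held to equal length (limma adjusted p = 0.0384).

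At the class II end, window 9 (32.5 to 33 Mb) had many peaks of even and lacZ lists, with ranks of 11 and 37 on the chromosome, and no comparison passed the test. The even lists held 2.55, 2.88 and 2.58 peaks per 10000, the lacZ lists 2.36, 2.31 and 3.78 and the odd lists 1.51, 2.45 and 2.22. In window 10 (33 to 33.5 Mb) both probe sets together exceeded lacZ by 0.37 ± 0.14 (SE, limma adjusted p = 0.0475), a call kept in 8 of 18 other settings.

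Calls per window depended on the libraries used. Without the libraries numbered 1 the number of called windows was 1 for odd against even, 1 for odd against lacZ and 3 each for even and for both sets against lacZ, while the share of all windows called fell to 2.84%, 15.8%, 14% and 19.8%. Odd against even gave 2 without the libraries numbered 2, where 6.16% of all windows were called. It gave 3 without odd replicate 2 (13.5% of all windows) or even replicate 2 (10.6%). Odd against lacZ gave 3 without odd replicate 1 (29.7%) or 2 (29.2%). Even against lacZ gave 3 without even replicate 2 (24.1%) or without the libraries numbered 3 (28.7%).

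**Figure D3:**
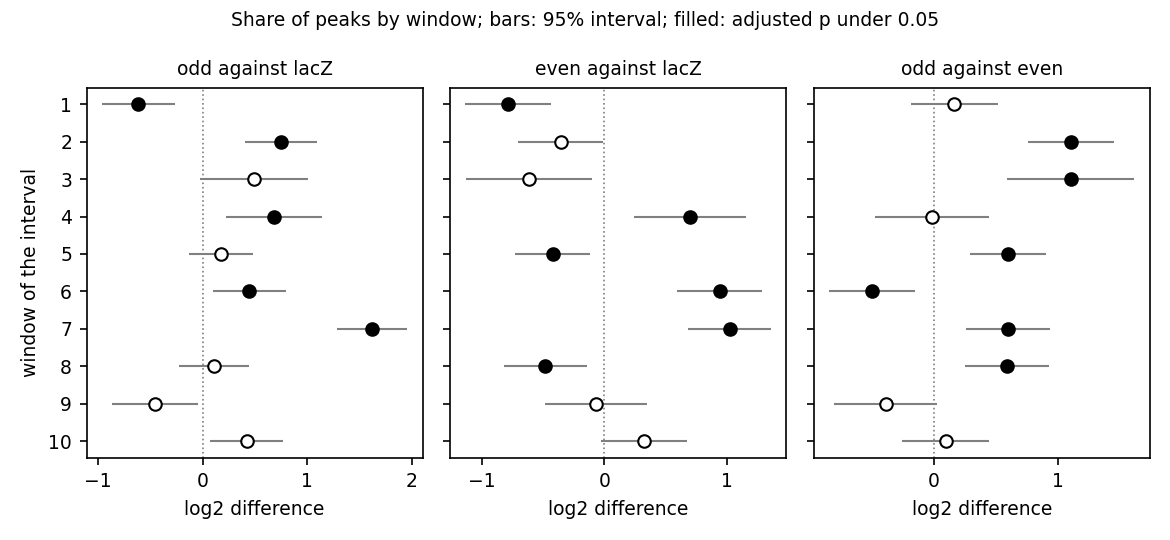
Log2 difference in peaks per 10000 between 2 sets of lists in each of the 10 windows (window 1 at the class I end), with 95% intervals from limma; filled points have an adjusted p under 0.05. Windows 2 and 3 are higher with odd than even probes by 1.10, and window 7 is higher than lacZ with both.

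The design asks which sites odd and even probes both recover where lacZ probes do not. Candidate regions were those lacking any lacZ peak but holding peaks of 5 or all 6 probe lists. The interval held 6 such regions of 727 (0.825%), where 1.13% of all 357901 merged regions met the rule and 0.967% of those in the rest of chromosome 6. Per Mb there were 1.2 in the interval and as many, to 2 digits, in the rest of the chromosome. In none of the 6 did the odd and even summits lie within 100 bases. Of all 4042 candidates on chromosomes 1 to 22 and X, 1299 had such close summits, which is 0.363% of all merged regions. In the rest of chromosome 6, 60 of 196 candidates did. The count was 1 with lists of equal length. It was 12 without the libraries numbered 2, 11 without those numbered 1 and 10 without odd replicate 1. In these last settings the rule asked for all but 1 of the probe lists that were left. For none of these other settings is the share over all regions given here.

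Averaged over both probe sets, the candidate region that ranked highest by fold lay in window 6, from 31263938 to 31265109. Its fold enrichment was 34.1, 70.4 and 69.7 in odd and 31.6, 35.1 and 44.9 in even replicates 1, 2 and 3, with summits 378 bases apart. Its folds put it between the percentiles 87.2 and 97.0 of the 6 lists. The second, in the same window from 31400607 to 31402032, was strong with odd probes, at 43.8, 105 and 98.0, and of middling strength with even probes, at 13.7, 11 and 8.3. Its summits lay 696 bases apart.

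The 3 candidate regions in windows 8 and 10 were stronger in rank with even than with odd probes. The region from 32285171 to 32286307 in window 8 had folds of 37.4, 50.2 and 31.9 in the even lists and of 10.3, 7.09 and 18.2 in the odd lists, with summits 516 bases apart. From 33283087 to 33283773 the even folds were 32.6, 35.5 and 32.9, while odd replicates 1 and 2 had 5.23 and 7.06 and replicate 3 had no peak. From 33387492 to 33388468 the even folds were 39.6, 38.4 and 22.7 and the odd folds 10.5, 13.3 and 7.56, with summits 138 bases apart. The sixth region, from 31912939 to 31913673 in window 7, was weak in both sets, with 6.95 and 5.57 in odd replicates 2 and 3, no peak in odd replicate 1, and 7.48, 4.68 and 10.2 in the even lists. In 4 of the 6 candidate regions, then, the mean percentile of fold was 86.2 or more in one probe set and 49.8 or less in the other. These limits were read off the same regions. How many candidates elsewhere show such a split was not counted, so it is not shown to be particular to the interval.

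**Figure D4:**
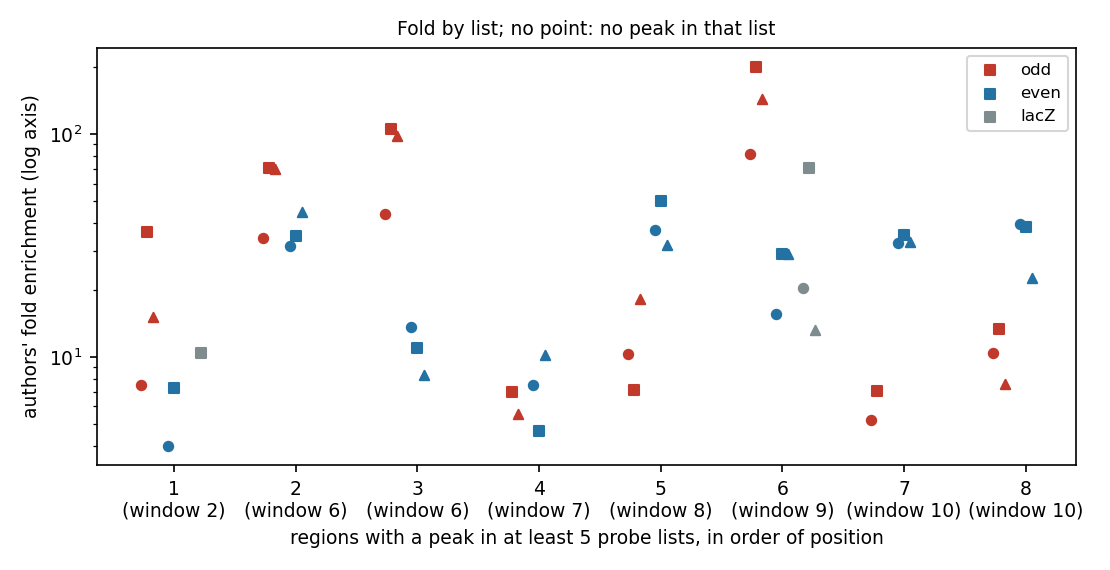
The authors' fold enrichment by list, on a log axis, for the 8 regions of the MHC interval with a peak in at least 5 probe lists, in order of position; circle, square and triangle are replicates 1, 2 and 3. Regions 1 and 6 also had lacZ peaks, and the other 6 are the candidate regions.

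One region of the interval had a peak in all 9 lists, where 0.0137% of all merged regions and 1 in the rest of chromosome 6 did. It lay in window 9, from 32739474 to 32740701. Its odd folds were 81.8, 201 and 144, its even folds 15.6, 29.1 and 29.0 and its lacZ folds 20.5, 70.6 and 13.2, so it ranked in the 98.9 to 99.6 percentiles of the odd lists and between 52.9 and 92.6 in the lacZ lists. The median odd summit stood at 32740277, the even one at 32739821 and the lacZ one at 32739944. The even and lacZ summits were thus closer to each other than to the odd summit.

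Regions shared between lacZ and a probe set were a larger part of the interval than of its surroundings. A peak in at least 2 lacZ lists and at least 2 lists of one probe set was found in 15 regions (2.06%), where 1.05% of all merged regions and 1.25% in the rest of chromosome 6 had one. Per Mb the interval held 3 such regions against 1.54 outside it, and the difference was not tested. Of the 15, 6 lay in windows 9 and 10 on the class II side, and the 5 of these besides the region in all 9 lists joined even and lacZ peaks. From 32919630 to 32921838 the lacZ folds were 54.3, 128 and 23.9 and the even folds 17.4, 18.5 and 18.7. From 32504533 to 32505595 they were 28.1, 88.1 and 27.1 for lacZ and 14.2, 10.9 and 17.7 for even. Odd and lacZ lists met in window 5 from 30809402 to 30810229, with odd folds of 41.1, 72.9 and 61.1 and lacZ folds of 19.1, 61.7 and 11.4.

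The same was seen in the overlap of whole lists, measured as the Jaccard index, or shared bases as a percentage of all bases that a pair of lists covers. Between odd and lacZ lists it was 1.31% ± 0.484 in the interval and 0.730% ± 0.244 in the rest of chromosome 6 (SD over 9 pairs), and higher in the interval for 9 of 9 pairs. Even and lacZ lists shared 1.41% ± 0.395 and 0.788% ± 0.210, again higher in 9 of 9 pairs. Odd and even lists went the other way in shared bases, with 0.956% ± 0.221 in the interval and 1.24% ± 0.117 outside it, lower in 9 of 9 pairs. Counted by peaks the order differed. Even peaks lay in a region with an odd peak in 7.89%, 6.99% and 7.23% of cases in the interval, against 6.19%, 6.43% and 5.53% outside it, and odd peaks with an even peak in 5.42%, 5.19% and 5.65%, against 6.41%, 5.99% and 5.80%. Regions with at least 1 odd and 1 even list made up 2.61% of the interval's regions and 2.15% of those outside it. The pairs share libraries, so no test was made over them. Without the region found in all 9 lists, the indices in the interval were 1.06%, 1.09% and 0.822%, and 8, 8 and 0 of 9 pairs stood above the rest of the chromosome.

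**Figure D5:**
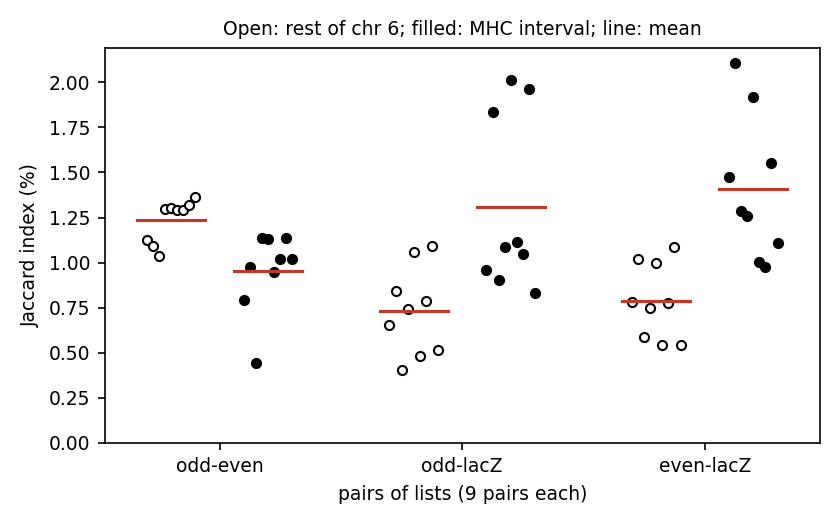
Jaccard index in percent for the 9 pairs of lists of each kind, in the rest of chromosome 6 (open) and in the MHC interval (filled), with means as lines. Odd-even pairs are lower and pairs with lacZ are higher in the interval, by 9 of 9 pairs each.

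Lists of the same set overlapped far more. The Jaccard index among odd lists was 58.3% ± 5.56 in the interval and 55.4% ± 4.81 outside it, among even lists 62.7% ± 1.57 and 58.8% ± 2.77, and among lacZ lists 43.6% ± 10.3 and 42.3% ± 9.84 (SD over 3 pairs each). The share of a list's peaks in regions where all 3 lists of its set had a peak ran from 54.1% to 91.6% in the odd lists, from 61.3% to 78.0% in the even lists and from 28.7% in lacZ replicate 2 to 89.1% in lacZ replicate 3. In the rest of the chromosome it ran from 49.5% to 89.1%, from 54.3% to 77.2% and from 26.9% to 89.4%.

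Peaks that recurred in 1 probe set made up much of the interval. Regions with a peak in all 3 odd and no even list numbered 144 (19.8% of 727), where 15.1% of all merged regions and 15.2% in the rest of chromosome 6 were of this kind. There were 28.8 of them per Mb, 1.54 times the 18.8 per Mb outside the interval. Regions with a peak in all 3 even and no odd list numbered 132 (18.2%), close to the 18.0% of all regions and the 17.6% of the rest of the chromosome, at 26.4 per Mb against 21.7. Neither rule set a condition on lacZ. Among the 144 regions of the odd set, 132 had no lacZ peak (18.2% of 727, against 14.5% in the rest of chromosome 6). Among the 132 of the even set, 124 had none (17.1%, against 16.9%). Regions with all 3 lacZ lists and at most 1 probe list numbered 39 (5.36%), where 6.13% of all regions and 6.37% in the rest of the chromosome met the rule, at 7.8 and 7.87 per Mb. The order of the sets in these densities is that of the peak numbers above, on which they partly rest. Lists of equal length left 40 odd-only and 43 even-only regions, without the share over all regions beside them.

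Odd-only regions were spread over the interval, from 8 in window 9 to 19 in window 3. Even-only regions numbered 9, 7 and 8 in windows 1 to 3 and between 11 and 21 in the others. The odd-only region with the highest percentile lay near the class I end, from 28673345 to 28674233, with folds of 80.1, 221 and 156 in odd replicates 1, 2 and 3. It was the strongest peak of the interval in replicates 2 and 3, and ranked 30 and 14 among their peaks on chromosome 6. The next were in window 8 from 32363917 to 32364749 (48.9, 143 and 139), in window 5 from 30897346 to 30898266 (42.4, 193 and 134) and in window 1 from 28643550 to 28644251 (56.8, 156 and 67.4).

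Of the 4 strongest even-only regions, 3 lay in window 6. The strongest, from 31189115 to 31190333, had folds of 171, 284 and 214 in even replicates 1, 2 and 3, and was the strongest peak of the interval in each of them, ranking 11, 5 and 4 on chromosome 6 and 131, 70 and 48 in the whole list. Its summits stood at 31189874, 31189871 and 31189870, within a few bases of each other. The others in this window were from 31162265 to 31163134 (78.5, 117 and 94.8) and from 31066448 to 31067334 (89.3, 95.8 and 68.7), and the fourth was in window 5 from 30919944 to 30920840 (141, 98.7 and 113). In the stretch of window 6 from 31118045 to 31239931 the odd lists had no peak at all.

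The strongest lacZ-only region, in window 5 from 30833190 to 30834195, had folds of 76.8, 229 and 70.2 in lacZ replicates 1, 2 and 3, and was the strongest lacZ peak of the interval in each. It ranked 51, 38 and 15 on chromosome 6. The other 3 named by rank were from 30339929 to 30340739 (48.9, 113 and 35.1), from 30752806 to 30753602 (39.1, 104 and 38.0) and from 29680793 to 29681630 (48.4, 100.5 and 24.9). Control probes thus also gave peaks that recurred in all 3 of their lists.

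In the remaining windows the region with the highest mean percentile belonged to 1 set in each case. Odd probes led in window 3 from 29517665 to 29518458 (48.4, 53.4 and 47.8), in window 7 from 31628712 to 31629519 (39.0, 74.7 and 66.6) and in window 10 from 33269355 to 33270229 (53.9, 119 and 73.5). Even probes led in window 4 from 30301813 to 30302584 (59.9, 77.2 and 96.4) and in window 9 from 32588661 to 32589439 (28.9, 35.9 and 50.3). In window 2, where odd peaks outnumbered even ones, the leading region was a lacZ one, from 29065333 to 29066234 (27.2, 75.6 and 22.6).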

How the data were processed

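The submitters' processing notes name FastQC, Bowtie2 and build hg19. The sources used here do not give the peak caller or its control. Each deposited list carries peak names of its own sample, so peaks were called per sample. The deposited pileup, in whole numbers, was read as a signal, the coverage at the summit. The fold enrichment was read as a ratio to a background. The headers name these values but do not define them or the background. Of the deposited −log10 p-values and −log10 q-values, the former served only to break ties in fold. Peak lengths were deposited in bases. Read depth behind each list is unknown; lists held 26540 to 124668 peaks, which limits precision most in lacZ replicate 3.

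Peaks on chromosomes 1 to 22 and X were used. Density ratios were compared by exact permutation tests over lists. Windows of 500 kb were fitted with limma 3.58.1 (trend, R 4.3.3) on log2 of peaks plus 0.5 per 10000 peaks of the list. Differences are relative to the list total and depend on the added 0.5. With 1 in its place, differences called higher than lacZ shrank, as for both probe sets together in window 7 (1.32 to 1.20). Those called lower than lacZ grew, as for even probes in window 8 (−0.48 to −0.50). Called differences between odd and even shrank in both directions, as in window 2 (1.10 to 1.08) and window 6 (−0.49 to −0.48). The fit was also run on simulated counts in which some windows were changed in the odd lists only. Those counts had no spread between lists beyond counting noise. The run therefore does not show how reliable the calls are in the real lists. Peaks of any list that shared 1 base or more were joined into merged regions. Named regions were up to 12 candidates, the 4 highest of each one-set class, the highest of each window and any in all 9 lists, by mean percentile of fold. The interval, lists and rules were chosen with earlier results of these data known. Alternatives covered stricter or equal lists, covered bases, other references, merging and presence rules, pseudocount, filter, scaling and window size, a replicate block and left-out libraries. Input samples were not analysed here.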

Additional observations from a re-analysis of the deposited data

Results flagged for a closer look

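The difference of 0.30 in log2 density ratio between the 6 probe lists and the 3 lacZ lists is one of 5 results singled out, because the excess of the interval over the rest of chromosome 6 differed between those groups (exact permutation p = 0.0357, adjusted p = 0.133 over 4 comparisons). In 4 windows the fitted odd and even differences from lacZ had opposite signs, though in none did both pass the test. In these 4 windows odd and even lists differed from each other with a limma adjusted p under 0.05. Only the 10 windows of the interval were checked by this rule, so its share over all windows is not known. Odd against even alone was called in 22.1% of all windows. The odd minus even difference was 1.10 in window 2 and 1.10 in window 3, 0.60 in window 5 and 0.59 in window 8, and the last turned to −0.65 with lists of equal length. By Dixon's criterion no probe list lay far from the other 5 in its density ratio, fold percentile or peak length ratio. The odd and even lists were pooled for this, so a list far from its own set could be missed. The lacZ lists were not checked.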

How the results depend on the processing

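Leaving out 1 window, or the region in all 9 lists, was chosen after seeing the data. Adding haplotype peaks was not run, since there were none. Read depth is unknown, and 3 lists a set limit each comparison. The excess over the rest of chromosome 6 kept its direction and its side of 0.05 in all 19 alternatives (0.25 to 0.32 with a replicate left out, exact permutation p = 0.00781 to 0.0313). The probe difference from lacZ stayed positive in all 20 but under 0.05 in 5. It was 0.20 with equal lists and 0.20 against all chromosomes, 0.19 without window 7, 0.26 to 0.38 with a replicate left out, and 0.30 with the replicate block (exact permutation p = 0.111); the 3 settings that leave out 1 number from every set cannot pass 0.05. Odd against lacZ, odd against even and even against lacZ stayed positive in 17 of 17 each (0.41 to 0.53, 0.26 to 0.35 and 0.094 to 0.24 with a replicate left out), in tests of 3 against 3 that cannot pass 0.05; with the block the exact permutation p was 0.25, 0.25 and 0.5. With equal lists odd against lacZ was 0.30 and odd against even 0.19. Even against lacZ was 0.031 without window 6 and 0.041 against all chromosomes.

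Whether the replicate numbers pair the lists was not tested. Deviations in chromosome 6 windows correlated between −0.0886 and 0.132 for same-numbered lists, with a mean of 0.026. Lists of different numbers correlated between −0.124 and 0.0713, with a mean of −0.013. There were 9 same-numbered pairs and 18 others. Of the 9 lists, 5 correlated best with their own number, and how many would do so without pairing was not worked out. Sample descriptions give same-numbered samples a shared merged name, but do not say whether they share a culture or day. With the replicate block 5, 6, 6 and 6 windows were called for both sets, odd and even against lacZ and odd against even. In windows of 1 Mb, 5 in the interval, it was 3, 3, 1 and 3. With a replicate left out these counts ran from 3 to 5, 1 to 7, 3 to 6 and 1 to 7. Of 396 recomputed values for called windows, 313 kept their call and 2 turned: window 1, odd against lacZ, to 0.10 in the 50% of each list with the highest fold, and window 8, odd against even, to −0.65 with equal lists.

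The 6 candidate regions became 16 when gaps of up to 500 bases were bridged, 1 when 50% cover by a list was asked for, 3 among the 50% of peaks of highest fold, 1 in equal lists, 12 with 4 of 6 probe lists, 0 with summits within 100 bases, and 5 to 12 with a replicate left out. The 50% of peaks with the highest fold left 20 lacZ-only, 73 odd-only and 65 even-only regions, equal lists 40 odd-only and 43 even-only, and left-out replicates 39 to 66, 144 to 213 and 132 to 162, with 66 lacZ-only regions when every replicate 3 was left out and 64 when lacZ replicate 3 was. With a list left out, the rules asked for all remaining lists of a set, or for all but 1 of the remaining probe lists. Fewer peaks were thus needed to meet a rule. The share of all merged regions that met a rule is not given for these settings, so the counts describe the interval alone. Except for this, and that shorter lists have fewer peaks to share, the cause was not tested. The odd-even overlap of 0.956% became 4.35% as a share of the shorter list's peaks and 0.614% in the 50% of peaks with the highest fold, and 0.819% to 1.06% with a replicate left out. With a replicate left out, the fold percentile difference ran from −2.57 to −0.48 points. In the 50% of each list with the highest fold it was −0.032 (exact permutation p = 0.984). The log2 length ratio ran from −0.014 (without replicate 1, exact permutation p = 0.688) to 0.047 with a replicate left out. Over the peaks of highest fold, 50% of each list, the length ratio was 0.056 (exact permutation p = 0.0469).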

Other observations

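Stretches without peaks differed between the sets. The longest stretch of the interval without a peak in any of the 9 lists ran from 32590146 to 32635951 in window 9, 45.8 kb on the class II side, and the next from 30756210 to 30799359 in window 5, 43.2 kb. For the odd lists together the longest was 124 kb, from 28503013 to 28626690 in window 1, and for the even lists 140 kb, from 30756210 to 30895838 in window 5. For the lacZ lists it was 136 kb, from 31173970 to 31310431 in window 6, where the even lists held their strongest peak of the interval.

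Peaks seen in 1 list alone made up 32.2% of the regions in the interval and 37.1% in the rest of chromosome 6. Odd peaks in the interval lay in a region with a lacZ peak in 6.36% to 8.43% of cases, against 4.05% to 4.74% in the rest of the chromosome, and even peaks in 5.53% to 7.89%, against 4% to 4.25%. Of the lacZ peaks in the interval, 10.5% to 11.7% lay with an odd peak and 9.94% to 18.2% with an even peak, against 5.72% to 7.10% and 5.87% to 7.73%. These shares were higher in the interval in every list, and no test was made on them.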
